A study of Homo sapiens with 9 samples.

Results

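The 10 genes described here belong to the interleukin-1 (IL-1) family and its first signal carriers. They were chosen by name, with earlier results of these data known. They are the ligand genes IL1A, IL1B, IL33 and IL18, the receptor antagonist gene IL1RN, and the receptor genes IL1R1, IL1RAP and IL1RL1. Also included are MYD88 and IRAK1, which act just inside the cell. All 10 were found by symbol among the 64253 gene identifiers of the files, each with a single identifier. Of these, 9 passed a filter on low read counts and were tested, none of them through the libraries of a single group alone, and IL1RN, with at most 3 reads in any library, was not tested.

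RNA was measured in 9 libraries of IMR90, lung fibroblasts of fetal human origin with a limited life span in culture, with 3 libraries (a, b and c) in each of 3 groups. Every group was grown at 2% oxygen, used at population doubling 30, given 2 lentiviruses 24 hours apart and selected with 3 ug/mL puromycin for 7 days. Control cells carried the pLKO.1 vector alone, which the sample labels call empty and the treatment protocol calls a GFP vector. The shRRM2 cells carried a short hairpin RNA against RRM2, a subunit of the enzyme that makes deoxyribonucleotides (dNTPs), and the labels call them senescent through dNTP depletion. The shRRM2/shp16 cells carried that hairpin and a second one directed at p16, a CDKN2A product that holds back the cell cycle, and are labelled as a senescence bypass. A group with only the p16 hairpin is not among the samples, so its effect could not be measured apart from the RRM2 hairpin. The labels do not say whether a, b and c were separate cultures, so the p-values measure the spread between these libraries, which may be technical.

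IL-1 alpha (IL1A) and IL-1 beta (IL1B) are inflammatory cytokines that bind the receptor IL1R1, which then pairs with its accessory chain IL1RAP. The receptors recruit the adaptor MYD88 and kinases of the IRAK group, and the signal ends in NF-kB and MAP kinases, which switch on genes of chemokines, IL-6 and prostaglandin synthesis. IL1RN occupies IL1R1 without signalling, IL-33 binds IL1RL1 (ST2), and IL-18 has receptors of its own. IL-1 beta and IL-18 are cut to their active form by caspase 1 in inflammasomes. In fibroblasts, IL-1 alpha is known as an upstream factor of the cytokine secretion that accompanies senescence.

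The stretches before the outermost RefSeq starts of IL1A, IL1B, IL1R1 and IL33 are shown because these genes were higher together in shRRM2/shp16 than in shRRM2, as described below. RefSeq (GRCh38.p14) gave promoter windows for 9 of the 10 genes. Each line runs 5′ to 3′ on the gene's strand, from 250 bases before that start to the next exon of the gene in GENCODE release 29, or to the start itself for IL33. They are chr2:112784591-112784743 on the minus strand (IL1A), chr2:112836904-112837029 on the minus strand (IL1B), chr2:102104354-102104562 on the plus strand (IL1R1) and chr9:6214899-6215148 on the plus strand (IL33). The IL1R1 stretch lies before an internal start, inside the gene as GENCODE annotates it (102064544 to 102179874), and the other 3 lie outside their genes. Capitals mark letters that match TATAAA (gene strand only) or the C/EBP motif TTNNGNAA (either strand).
IL1A: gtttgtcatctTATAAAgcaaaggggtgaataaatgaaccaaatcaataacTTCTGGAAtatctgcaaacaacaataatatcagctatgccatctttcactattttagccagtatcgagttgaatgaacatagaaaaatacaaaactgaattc
IL1B: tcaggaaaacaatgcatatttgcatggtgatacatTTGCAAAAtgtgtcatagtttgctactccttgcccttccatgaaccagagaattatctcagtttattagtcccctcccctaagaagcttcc
IL1R1: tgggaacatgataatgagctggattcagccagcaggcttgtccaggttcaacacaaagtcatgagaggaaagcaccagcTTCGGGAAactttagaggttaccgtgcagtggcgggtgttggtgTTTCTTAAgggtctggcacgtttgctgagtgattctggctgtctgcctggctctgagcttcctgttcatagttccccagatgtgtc
IL33: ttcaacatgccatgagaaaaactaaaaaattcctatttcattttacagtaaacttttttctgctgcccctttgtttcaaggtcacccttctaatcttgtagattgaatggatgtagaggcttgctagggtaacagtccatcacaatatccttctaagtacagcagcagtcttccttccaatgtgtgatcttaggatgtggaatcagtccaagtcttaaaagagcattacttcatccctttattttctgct

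The IL1A stretch held a TATAAA match 239 to 234 bases before the start and a C/EBP match at 199 to 192. In the IL1B stretch there was a C/EBP match at 215 to 208, on the other strand, and IL1R1 had 2 of them. The IL33 stretch held none. Across the full 250 bases, IL1A also had a match to the AP-1 motif TGANTCA (either strand) 12 to 6 bases before the start, with 1 more C/EBP match, and IL1B had 2 more C/EBP matches. The NF-kB consensus, searched on both strands, was in 1 of the 17 windows of the 9 genes, that of IRAK1. No match overlapped another in the 4 printed stretches. Of 35116 RefSeq windows of the same 250 bases, 9.96% held the NF-kB consensus, 6.57% the AP-1 motif, 33.2% the C/EBP motif and 6.8% TATAAA. These matches describe the letters of the windows and not sites in use.

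Gene-assigned reads numbered 15770895 to 24873291 per library. Some uniquely aligned reads were assigned to no counted feature, and these need not lie outside genes. They made up 17.6% to 18.9% in control, 27.7% to 28.8% in shRRM2 and 23.5% to 24.4% in shRRM2/shp16. This share thus moved with the groups, and its part in the results was not tested. The authors' second file, a table of log2 RPKM values, did not match the counts of shRRM2 replicate c, and the counts are used below unless the table is named. The targeted RRM2 was at 485 ± 5.23, 62.1 ± 1.86 and 177 ± 3.0 CPM (reads scaled to a common library size by the trimmed mean of M values, TMM; mean ± SD, n = 3) in control, shRRM2 and shRRM2/shp16. CDKN2A was at 6.02 ± 0.113, 6.5 ± 0.464 and 4.28 ± 0.321 CPM. Markers of fibroblasts were abundant, with a sum over 12 genes of 30500 to 31500 CPM in control, 29200 to 30000 in shRRM2 and 26200 to 26800 in shRRM2/shp16. Of 14 macrophage and other leukocyte markers, 5 had no read, AIF1 and CD3E among them. In all, 8 had at most 3 reads in every library, including PTPRC and ITGAM. The 6 others had more in some library, and CD68, CD163 and LYZ were tested. AIF1 has 6 gene identifiers and PTPRC has 2, so their reads may be lost as not uniquely aligned. The leukocyte sum was 4.94 to 5.76, 6.86 to 8.95 and 5.64 to 6.5 CPM in the 3 groups. In the same order 7 epithelial markers summed to 24.1 to 25.3, 12.2 to 13.7 and 3.34 to 5.64 CPM, with KRT5 at 0. The 6 endothelial markers summed to 65.4 to 70.6, 68.0 to 73.1 and 115 to 124 CPM, with CDH5 and CLDN5 at 3 reads or fewer. More than 3 reads in some library were found for 5 epithelial markers, EPCAM and CLDN4 among them, and 4 endothelial markers, including KDR and TEK.

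Set side by side per length, the family was led by its receptor and its signal carriers in control cells. As RPKM (CPM per kilobase of gene length; mean ± SD, n = 3), IRAK1 was at 38.0 ± 0.972, IL1R1 at 15.6 ± 0.58 and MYD88 at 12.6 ± 0.293. Each lay above the next in every library. IL1B (0.982 ± 0.246) and IL1RAP (0.806 ± 0.0472) followed and overlapped each other. IL18 (0.297), IL33 (0.197), IL1A (0.185) and IL1RL1 (0.156) formed a low group in which each overlapped the next, and IL1RN was lowest at 0.0279.

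The order of the first 5 genes was the same in shRRM2, with IL1B at 4.0 ± 0.384 RPKM now above IL1RAP at 1.3 ± 0.108 in every library. Below them came IL18 (0.648), IL1A (0.481), IL33 (0.183), IL1RL1 (0.0751) and IL1RN (0.043), the last 3 overlapping in sequence. In shRRM2/shp16 the head of the order was different: IL1R1 at 71.1 ± 1.25 RPKM and IL1B at 69.9 ± 0.985 RPKM led and overlapped each other. They stood above IRAK1 (25.5 ± 1.1), MYD88 (11.6 ± 0.176), IL1A (5.32 ± 0.632), IL33 (1.72 ± 0.0642) and IL1RAP (1.31 ± 0.0435), each above the next in every library. IL18 (0.205) and IL1RL1 (0.166) overlapped near the bottom, and IL1RN was again last at 0.0153.

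**Figure D1:**
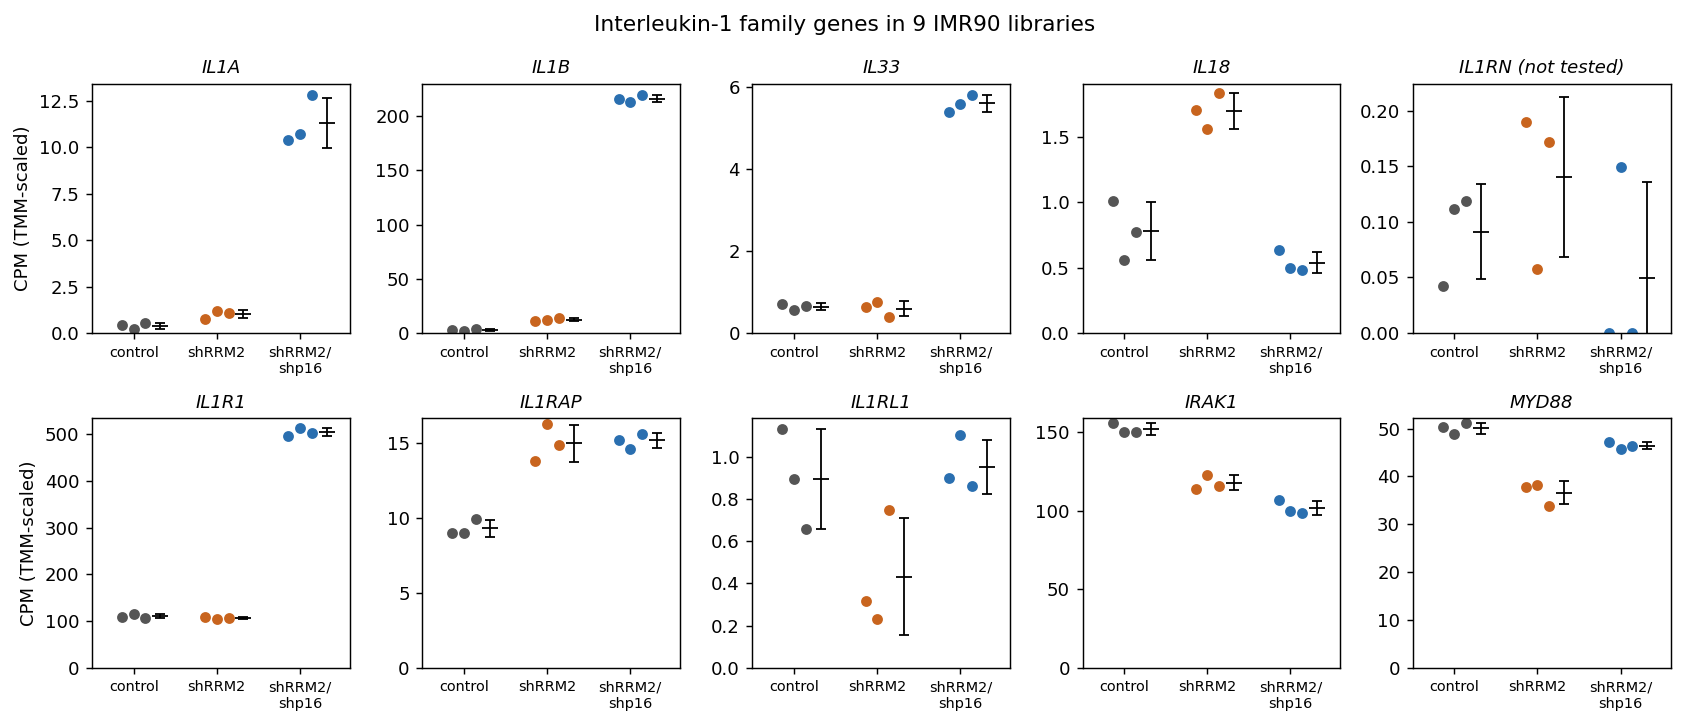
Each panel plots 1 gene, with the group on the horizontal axis and TMM-scaled CPM on a linear vertical axis that starts at 0 and differs between panels. Points are libraries a, b and c, and the bar beside them is the mean ± SD (n = 3). IL1A, IL1B, IL33 and IL1R1 stand highest in the 3 shRRM2/shp16 libraries, IL18 in the 3 shRRM2 libraries, and IRAK1 in the 3 control libraries.

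The comparison of shRRM2 with control asks how the family differed in cells that the labels call senescent. IL1A, IL1B, IL18 and IL1RAP were higher, and IL1RL1, IRAK1 and MYD88 were lower, while IL1R1 and IL33 were not past the threshold. So 4 of the 9 tested genes rose and 3 fell by edgeR's quasi-likelihood test at a Benjamini-Hochberg adjusted p of 0.05. Over all 16561 tested genes 60.9% were called, 29.0% higher and 31.8% lower, so a call by itself sets these genes little apart. The median log2 fold change of the 9 genes was -0.05, against 0.00 over all tested genes, and it was 0.11 without shRRM2 replicate c. Changes of at least 2-fold past the threshold were made by 3 higher genes and 1 lower gene, where 10.1% of all tested genes made one, 6.81% higher and 3.26% lower. The groups did not overlap for 6 of the 9, against 63.6% of all tested genes.

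Between shRRM2 and shRRM2/shp16 the question is how the family differed between groups labelled senescent and bypass. These groups differ in more than the p16 hairpin: RRM2 was 2.85-fold higher (edgeR adjusted p 7.9e-34) and CDKN2A 1.52-fold lower (edgeR adjusted p 7.0e-05) in shRRM2/shp16, and effects of both cannot be told apart. IL1A, IL1B, IL33 and IL1R1 were several-fold higher, IL1RL1 and MYD88 were higher by less, IL18 and IRAK1 were lower, and IL1RAP was not past the threshold. This made 6 of 9 higher and 2 lower, beside 61.1% of all tested genes called, 31.9% higher and 29.1% lower. Of these, 5 were at least 2-fold higher and 1 at least 2-fold lower, against 11.8% of all tested genes, 5.19% higher and 6.58% lower. The median log2 fold change was 1.12, against 0.01 over all tested genes, and 1.78 without shRRM2 replicate c. With limma on the authors' RPKM values 61.6% of the called genes were higher (59.7% on the 8 columns that match the counts), where the counts gave 52.3%. The groups were separate for 8 of 9 genes and for 64.7% of all tested genes.

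Against control, shRRM2/shp16 had 5 of the 9 genes higher (IL1A, IL1B, IL33, IL1R1, IL1RAP) and 2 lower (IRAK1, MYD88), with IL18 and IL1RL1 not past the threshold. Over all tested genes 62.4% were called, 30.0% higher and 32.4% lower, and the groups were separate for 66.2% of them and for 7 of the 9. A change of at least 2-fold upward was made by 4 of the 9 and none made one downward. Of all tested genes 12.6% made one, 6.59% upward. The median was 0.71, against 0.01 over all tested genes. By limma 59.3% of the called genes of this comparison were higher, where the counts gave 48.1%. The 3 comparisons share libraries and are not independent of each other. In these bulk samples a change in the number of cells that express a gene and a change in RNA per cell cannot be told apart.

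**Figure D2:**
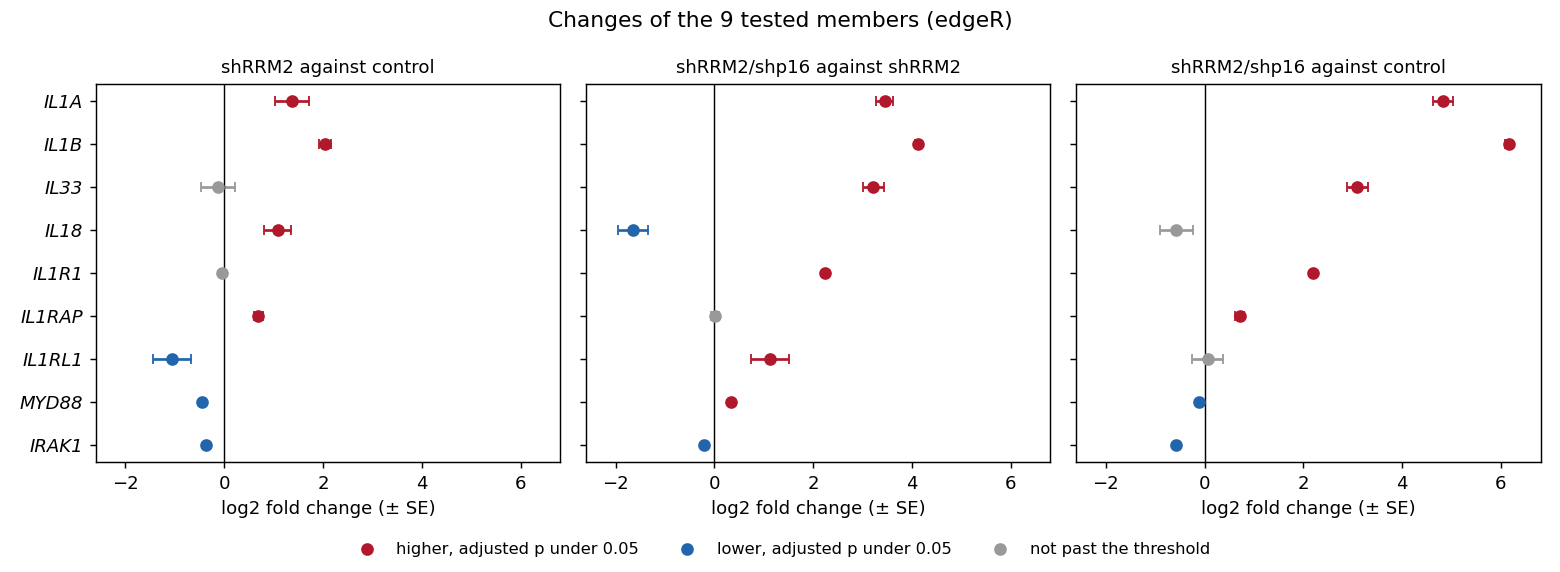
Points are the edgeR log2 fold changes of the 9 tested genes and bars are ± 1 standard error, in the 3 comparisons, coloured by whether the adjusted p passed 0.05. IL1B has the highest value in each panel, at 2.04, 4.12 and 6.16, and IL18 changes side from 1.08 to -1.65 between the first and second panels.

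IL1B (ENSG00000125538; chromosome 2, 112829751 to 112836903, minus strand, GRCh38), the secreted inflammatory ligand that needs cutting to be active, was the most abundant of the ligands in all 3 groups. Control libraries a, b and c had 72, 41 and 64 reads, or 3.02, 2.29 and 3.81 CPM. The shRRM2 libraries had 178, 212 and 238 reads, or 11.3, 12.2 and 13.7 CPM. The shRRM2/shp16 libraries had 4097, 4283 and 4081 reads, or 216, 213 and 219 CPM. The 3 groups did not overlap, and the shRRM2/shp16 libraries stood far above the others.

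The log2 fold change of IL1B was 2.04 ± 0.12 (SE) in shRRM2 against control, 4.1-fold, with an edgeR adjusted p of 2.7e-19. From shRRM2 to shRRM2/shp16 it was 4.12 ± 0.06, 17.4-fold (adjusted p 8.7e-43, edgeR). Against control the doubly targeted cells were 71.4-fold higher, a log2 fold change of 6.16 ± 0.07. In every alternative that kept IL1B, these values ranged from 1.89 to 2.4, from 3.74 to 4.22 and from 6.01 to 6.32.

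IL1A (ENSG00000115008; chromosome 2, 112773915 to 112784590, minus strand), whose product is active without cutting and often stays on the cell that makes it, followed the same order at a much lower level. Control libraries had 10, 4 and 9 reads (0.419, 0.224 and 0.536 CPM) and shRRM2 libraries had 12, 21 and 19 (0.762, 1.21 and 1.09 CPM). The shRRM2/shp16 libraries had 197, 214 and 239 reads (10.4, 10.7 and 12.8 CPM). The groups were again separate, although the step from control to shRRM2 rests on a handful of reads. That step was 1.37 ± 0.35 on the log2 scale (edgeR adjusted p 8.7e-04), 2.59-fold. The next was 3.45 ± 0.17 (edgeR adjusted p 1.8e-21), 10.9-fold.

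Per length, IL1B exceeded IL1A in every library. The ratio of their RPKM was 4.94, 7.03 and 4.88 in control, 10.2, 6.93 and 8.59 in shRRM2, and 14.3, 13.7 and 11.7 in shRRM2/shp16. The shRRM2/shp16 ratios lay above all others, while 1 shRRM2 library (b) lay within the range of control. These ratios were described and not tested.

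IL33 (ENSG00000137033; chromosome 9, 6215786 to 6257983, plus strand) encodes a nuclear cytokine that damaged cells release. It had 17, 10 and 11 reads in control (0.712, 0.559 and 0.655 CPM) and 10, 13 and 7 in shRRM2 (0.635, 0.75 and 0.402 CPM). In shRRM2/shp16 it had 102, 112 and 108 reads (5.39, 5.58 and 5.8 CPM). Control and shRRM2 overlapped, and shRRM2/shp16 stood above both. The difference between shRRM2 and control was not detectable at this depth (-0.13 ± 0.34, edgeR adjusted p 0.769), and its sign depended on shRRM2 replicate c, being 0.11 without it. The rise from shRRM2 to shRRM2/shp16 was 3.22 ± 0.22 on the log2 scale (edgeR adjusted p 9.8e-17), 9.32-fold, and 2.28 by limma on the authors' 9 RPKM columns.

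IL18 (ENSG00000150782; chromosome 11, 112143251 to 112164117, minus strand), the ligand known for inducing interferon gamma in lymphocytes, had the opposite order from the other ligands between the hairpin groups. Its reads were 24, 10 and 13 in control (1.01, 0.559 and 0.774 CPM), 27, 27 and 32 in shRRM2 (1.71, 1.56 and 1.84 CPM), and 12, 10 and 9 in shRRM2/shp16 (0.634, 0.498 and 0.484 CPM). The shRRM2 libraries were highest and separate from both other groups, which overlapped each other. IL18 rose in shRRM2 by 1.08 ± 0.27 on the log2 scale (edgeR adjusted p 7.1e-04), 2.12-fold, and by limma on the authors' 9 RPKM columns the difference was 0.56 and not called (adjusted p 0.144). It was 3.14-fold lower in shRRM2/shp16 than in shRRM2, with -1.65 ± 0.30 (edgeR adjusted p 6.6e-06), and at -0.85 by limma on those 9 columns (adjusted p 0.0343). Against control it was not past the threshold (-0.57 ± 0.34, edgeR adjusted p 0.147). That IL18 and IL1B differ in response was not tested as an interaction between genes.

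IL1RN (ENSG00000136689; chromosome 2, 113107214 to 113134016, plus strand), the antagonist, was at the limit of detection. It had 1, 2 and 2 reads in control, 3, 1 and 3 in shRRM2 and 0, 3 and 0 in shRRM2/shp16. No group had more than 3 reads in a library, so no fold change is given. With no filter on low counts its edgeR adjusted p was 0.45 to 0.742 over the 3 comparisons. The antagonist was thus not seen to follow IL1A and IL1B at this depth, and 3 reads is 0.149 CPM in shRRM2/shp16 replicate b, where IL1B was at 213 CPM.

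IL1R1 (ENSG00000115594; chromosome 2, 102064544 to 102179874, plus strand), the receptor that carries the IL-1 signal, had 2596, 2060 and 1804 reads in control (109, 115 and 107 CPM) and 1714, 1801 and 1860 in shRRM2 (109, 104 and 107 CPM). In shRRM2/shp16 it had 9385, 10308 and 9354 reads (496, 513 and 503 CPM). Control and shRRM2 overlapped, and the 3 shRRM2/shp16 libraries were all above them. The change in shRRM2 against control was -0.05 ± 0.04 (edgeR adjusted p 0.196). With no filter on low counts it was -0.09 and past the threshold (edgeR adjusted p 0.0368). The rise in shRRM2/shp16 was 4.73-fold over shRRM2, a log2 fold change of 2.24 ± 0.03 (edgeR adjusted p 1.1e-41), and 4.56-fold over control.

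IL1RAP (ENSG00000196083; chromosome 3, 190514051 to 190659750, plus strand), the accessory chain shared by the IL-1 and IL-33 receptors, did not follow IL1R1. It had 215, 161 and 167 reads in control (9.01, 9.0 and 9.95 CPM), 218, 283 and 259 in shRRM2 (13.8, 16.3 and 14.9 CPM), and 288, 294 and 291 in shRRM2/shp16 (15.2, 14.6 and 15.6 CPM). Both hairpin groups lay above control and overlapped each other. The rise was 0.69 ± 0.09 in shRRM2 (edgeR adjusted p 6.6e-09) and 0.71 ± 0.09 in shRRM2/shp16 (edgeR adjusted p 1.9e-09), both on the log2 scale against control. Between the hairpin groups the difference was 0.01 ± 0.08 (edgeR adjusted p 0.916), and its sign turned without shRRM2 replicate a (-0.04) or without shRRM2/shp16 replicate c (-0.01).

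The per-length ratio of IL1R1 to IL1RAP was 19.7, 20.9 and 17.6 in control, 12.8, 10.4 and 11.7 in shRRM2, and 53.2, 57.2 and 52.5 in shRRM2/shp16. It was lowest in shRRM2 and highest in shRRM2/shp16, with no overlap between groups. In the authors' deposited table IL1RAP was at 14.2 FPKM in shRRM2 and 9.22 FPKM in shRRM2/shp16, a log2 fold change of -0.62 (q-value 4.4e-04), whereas the deposited counts gave 0.01. The cause of that disagreement was not tested.

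IL1RL1 (ENSG00000115602; chromosome 2, 102311502 to 102352037, plus strand), the IL-33 receptor, was close to the limit of detection. Its reads were 27, 16 and 11 in control (1.13, 0.894 and 0.655 CPM), 5, 4 and 13 in shRRM2 (0.317, 0.231 and 0.746 CPM), and 17, 22 and 16 in shRRM2/shp16 (0.898, 1.1 and 0.86 CPM). The shRRM2 libraries a and b were lowest, and shRRM2 c lay within the control range. IL1RL1 overlaps IL18R1 on the same strand, and reads in shared exons may be set aside as ambiguous.

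The edgeR log2 fold change of IL1RL1 was -1.06 ± 0.38 in shRRM2 against control (adjusted p 0.0152). The call was lost with DESeq2 (adjusted p 0.0584) and without control replicate a (-0.82, 0.113), shRRM2 replicate a (-0.90, 0.0643) or shRRM2 replicate b (-0.74, 0.115). Without shRRM2 replicate c the value was -1.72. In shRRM2/shp16 against shRRM2 it was 1.12 ± 0.38 (edgeR adjusted p 0.0102), 0.81 and not past the threshold without shRRM2 replicate b (adjusted p 0.0846), and 1.78 without shRRM2 replicate c. Against control it was 0.06 ± 0.31 (edgeR adjusted p 0.889). Its ligand IL33 exceeded it per length by 1.11, 1.1 and 1.77 times in control and by 10.6, 8.99 and 11.9 times in shRRM2/shp16. In shRRM2 that ratio ran from 0.951 to 5.74.

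MYD88 (ENSG00000172936; chromosome 3, 38138478 to 38143022, plus strand), the adaptor that joins IL-1 and Toll-like receptors to the IRAK kinases, had 1200, 875 and 860 reads in control (50.3, 48.9 and 51.2 CPM). It had 595, 662 and 590 reads in shRRM2 (37.8, 38.2 and 33.9 CPM) and 891, 917 and 862 in shRRM2/shp16 (47.1, 45.7 and 46.3 CPM). The shRRM2 libraries were lowest and the 3 groups did not overlap. MYD88 fell by 0.45 ± 0.05 on the log2 scale in shRRM2 (edgeR adjusted p 3.2e-10) and was higher by 0.34 ± 0.05 in shRRM2/shp16 than in shRRM2 (edgeR adjusted p 2.8e-07).

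Against control, MYD88 in shRRM2/shp16 was at the edge of the threshold, with -0.11 ± 0.05 (edgeR adjusted p 0.0404). DESeq2 (adjusted p 0.107), a filter of at least 10 counts in every library (0.0892) and limma on the authors' RPKM values (-0.01, adjusted p 0.831) did not call it. Nor did the edgeR fit without control replicate a (-0.10, 0.106), control replicate c (-0.10, 0.117) or shRRM2/shp16 replicate a (-0.12, 0.0506), b (-0.10, 0.117) or c (-0.11, 0.0803). Scaling by total reads in place of TMM moves every log2 fold change of this comparison by 0.104, about the size of this difference.

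IRAK1 (ENSG00000184216; chromosome X, 154010500 to 154019980, minus strand), a kinase that is degraded after the receptor signals, had the reverse order of IL1B. It had 3732, 2677 and 2512 reads in control (156, 150 and 150 CPM), 1801, 2131 and 2013 in shRRM2 (114, 123 and 116 CPM), and 2023, 2017 and 1831 in shRRM2/shp16 (107, 100 and 98.4 CPM). Control was highest and shRRM2/shp16 lowest, with no overlap. It fell by 0.37 ± 0.04 in shRRM2 on the log2 scale (edgeR adjusted p 1.1e-11). From shRRM2 to shRRM2/shp16 the change was -0.21 ± 0.04 (edgeR adjusted p 1.1e-05), and -0.12 and not past the threshold with limma on the authors' 9 RPKM columns (adjusted p 0.0665). The total against control was -0.58 ± 0.04, which left the doubly targeted cells 1.49-fold lower.

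Both chromosome 2 clusters of the family could be read gene by gene. In the receptor cluster, in the order IL1R2, IL1R1, IL1RL2, IL1RL1, IL18R1 and IL18RAP, IL1R1, IL1RL2, IL1RL1 and IL18R1 were each called higher in shRRM2/shp16 than in shRRM2, where 31.9% of all tested genes were. IL18R1, the ligand-binding chain of the IL-18 receptor, had 53, 54 and 62 reads in shRRM2 and 488, 502 and 504 in shRRM2/shp16, a log2 fold change of 2.95 ± 0.10 (edgeR adjusted p 6.4e-28). IL1R2, a decoy receptor that binds IL-1 without signalling, had 0, 2 and 1 reads in control, 1, 3 and 0 in shRRM2, and 12, 14 and 11 in shRRM2/shp16. It passed the filter on low counts only through the shRRM2/shp16 libraries, so it had to differ, and its test is not given as support. IL1RL2, the IL-36 receptor, rose by 0.89 ± 0.19 on the log2 scale. IL18RAP, with 0 to 12 reads, was not tested.

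In the ligand cluster, which runs from IL1A and IL1B through IL37, IL36G, IL36A, IL36B, IL36RN and IL1F10 to IL1RN, only IL1A and IL1B were tested. The 7 others had at most 4 reads in any library. IL1A and IL1B were thus the only genes of this cluster with more than 4 reads in any library.

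Of the 14 other ligands and receptors of the family, 6 were tested. In shRRM2 against control 2 were higher and none lower, with a median of 0.44 on the log2 scale (0.33 without IL1R2). Of all tested genes 29.0% were higher and 31.8% lower at that step. In shRRM2/shp16 against shRRM2 4 rose and 2 fell (median 0.62), and 3 and 2 did so without IL1R2 (median 0.35). The shares of all tested genes there were 31.9% higher and 29.1% lower. IL1RAPL1, a receptor-like gene known from neurons, rose by 1.54 in shRRM2 (edgeR adjusted p 1.4e-13) and was lower by a change of -1.56 in shRRM2/shp16. IL18BP, the secreted binding protein that blocks IL-18, moved with IL18, by 0.54 and then by -0.54 (edgeR adjusted p 4.5e-04 and 4.8e-04). SIGIRR, an inhibitory receptor of the family, was higher by 0.35 in shRRM2/shp16 than in shRRM2 (edgeR adjusted p 0.0192).

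Of 13 inflammasome and protease genes 9 were tested: 3 were higher and 4 lower in shRRM2 against control (median 0.07), and 4 higher and 2 lower in shRRM2/shp16 against shRRM2 (median 0.09). The backgrounds were those above, 29.0% higher and 31.8% lower at the first step and 31.9% and 29.1% at the second. CASP1, the protease that cuts IL-1 beta and IL-18, rose at both steps, from 12.3 ± 0.429 to 19.6 ± 0.22 and 31.8 ± 2.01 CPM (log2 fold changes 0.67 and 0.7). PYCARD, the inflammasome adaptor ASC, fell by 0.55 in shRRM2 and then rose by 1.12. CASP4, a caspase that senses bacterial lipid, rose by 0.68 in shRRM2, and NLRP1, an inflammasome sensor, fell by 0.51. CARD8, a sensor related to NLRP1, fell by 0.55 and then rose by 0.26. MEFV, the gene of the sensor pyrin, had the highest called value of the list in shRRM2 (1.38, edgeR adjusted p 0.0086), on 7, 2 and 5 reads in control and 14, 9 and 9 in shRRM2. It reached the cutoff of the filter on low counts in 3 libraries only, so its call is not given as support. Without MEFV the list had 2 higher and 4 lower at the first step (median -0.07), and 4 and 2 at the second (median 0.13). CAPN1 and CAPN2, subunits of calpains that can cut IL-1 alpha, were lower in shRRM2/shp16 than in shRRM2, with log2 fold changes of -0.5 and -0.63. NLRP3, the best known sensor for IL-1 beta, had at most 6 reads in any library and was not tested.

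All 32 listed genes between the receptor and NF-kB were tested. In shRRM2 against control 13 were higher and 9 lower (median 0.02), beside 60.9% of all tested genes called, 29.0% higher and 31.8% lower. In shRRM2/shp16 against shRRM2 17 rose and 6 fell (median 0.20), beside 31.9% higher and 29.1% lower. Among the largest rises at the latter step were TNFAIP3, IRAK3 and NFKBIA, which restrain the pathway, and the ubiquitin ligase PELI2. PELI2 rose by 2.3 there, after a fall of 0.91 in shRRM2 against control. TNFAIP3 (A20, which removes ubiquitin signals) went from 20.8 ± 1.36 to 189 ± 6.8 CPM (log2 fold change 3.18). IRAK3, an IRAK that dampens signalling, went from 10.0, 9.46 and 8.49 CPM in the shRRM2 libraries to 49.7, 47.8 and 52.6 CPM (2.42), and NFKBIA, the inhibitor of NF-kB, from 26.8 ± 2.36 to 123 ± 4.33 CPM (2.19). IRAK2, which sustains the signal, rose at both steps, by 0.72 and 1.21. NFKBIZ, a nuclear regulator that IL-1 induces, rose at both steps as well, from 61.8 ± 2.53 to 106 ± 4.41 and 192 ± 0.219 CPM (0.78 and 0.86). The NF-kB subunit RELB rose by 0.52 in shRRM2 and by 1.58 from shRRM2 to shRRM2/shp16. At that second step the subunits NFKB2 (1.13), REL (0.96) and NFKB1 (0.79) rose too, and RELA (0.0) was not called. The NF-kB inhibitor NFKBIB fell by 0.4 and then rose by 0.55. IRAK3 and NFKBIA were slightly lower in shRRM2 than in control (-0.33 and -0.18). TRAF6, UBE2N and UBE2V1, which build the ubiquitin chains of the relay, were lower in shRRM2/shp16 than in shRRM2 (-0.38, -0.3 and -0.44). In shRRM2 against control TRAF6 (0.21) and UBE2V1 (0.52) were higher and UBE2N (-0.2) was lower. MAP2K6, a kinase upstream of p38, fell by 2.65 in shRRM2 and rose by 2.34 in shRRM2/shp16.

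Of 25 genes known to be induced by IL-1 in fibroblasts 22 were tested. In shRRM2 against control 13 rose and 4 fell (median 0.74 on the log2 scale), and 11 and 4 did so without shRRM2 replicate c (median 0.57). Of all tested genes 29.0% rose and 31.8% fell at that step. In shRRM2/shp16 against shRRM2 21 rose and none fell (median 3.22), where 31.9% of all tested genes rose. The list was chosen with earlier results of these data known, so this count is not an independent test. CSF3, CCL7, CCL20 and CXCL6 had 0 to 11 reads in the control and shRRM2 libraries and passed the filter only through shRRM2/shp16, so their rise is built into that count. Among the 18 others 17 rose and none fell (median 2.82), and at the first step 11 rose and 4 fell (median 0.64). IL6 went from 7.55 ± 0.741 CPM in control to 34.4 ± 2.94 in shRRM2 and 283 ± 2.56 in shRRM2/shp16, and PTGS2 (cyclooxygenase 2) from 19.2 ± 0.86 to 79.1 ± 1.65 and 1010 ± 17.4. The neutrophil chemokine CXCL8 went from 8.94 ± 0.68 to 15.2 ± 1.21 and 1160 ± 37.5 CPM.

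These targets did not all change with IL1B at the first step. CXCL2 and CXCL3, related chemokines whose reads may be shared between close copies, fell in shRRM2 by 2.8 and 1.5 on the log2 scale. Both falls rest on few reads. CXCL2 had 31, 35 and 33 in control and 5, 3 and 4 in shRRM2, and CXCL3 had 24, 19 and 20 and then 2, 11 and 6. PTGES, which makes a prostaglandin, fell by 0.81, while ICAM1, an adhesion molecule, rose by 2.55. At the second step ICAM1 was the gene of the list that was not called, at 0.08 (edgeR adjusted p 0.101). CXCL1 rose there by 8.17 and CXCL5 by 7.24. CSF3, the growth factor G-CSF, had 1, 2 and 8 reads in shRRM2 and 1226, 1313 and 1213 in shRRM2/shp16. Whether any of these genes responded to the ligands in these cells was not tested. The marker lists held called genes as well, beside 60.9% of all tested genes called at the first step and 61.1% at the second. Of 12 tested fibroblast markers 2 were higher and 7 lower in shRRM2 against control, and 3 higher and 5 lower in shRRM2/shp16 against shRRM2. DCN, VIM and PDGFRA had the lowest called values at the first step (-0.71, -0.6 and -0.5), with COL1A2 (0.18) and COL1A1 (0.08) called higher. At the second step PDGFRA (1.92), COL3A1 (1.13) and COL6A1 (0.55) rose and THY1 (-0.83), VIM (-0.72) and COL1A1 (-0.53) fell. Of 3 tested leukocyte markers LYZ (0.93) and CD163 (0.87) rose in shRRM2, and LYZ was lower at the second step (-0.49, edgeR adjusted p 0.0424). Without shRRM2 replicate c the first step had 1 of the 3 higher and the second had none lower. The epithelial CLDN4 fell at both steps (-1.1 and -2.17), while CDH1, with 4 to 14 reads per library, was higher in shRRM2 (1.08) and passed the filter only through that group. The endothelial KDR (1.43) and TEK (0.77) rose at the second step. Their part in the results was not tested.

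**Figure D3:**
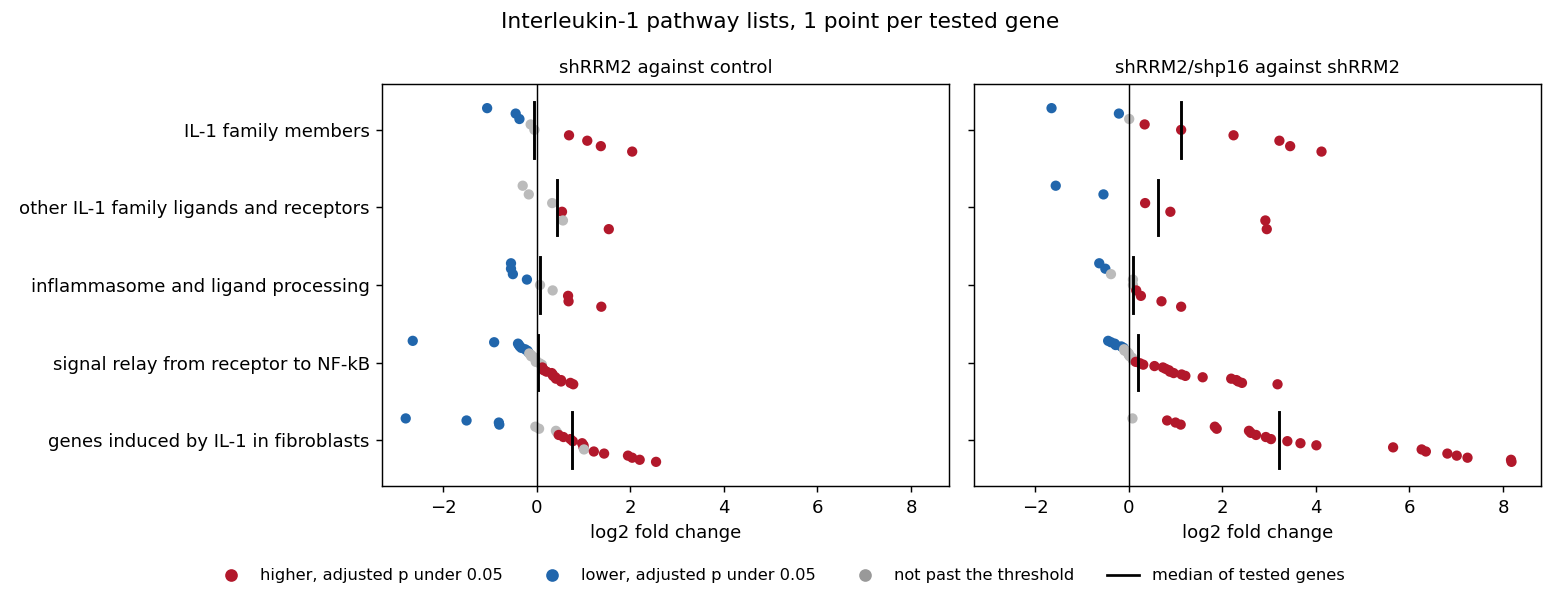
Each point is the edgeR log2 fold change of 1 tested gene, in rows by gene list, coloured by direction where the adjusted p passed 0.05, and the vertical tick is the list's median. The IL-1-induced genes lie furthest right in shRRM2/shp16 against shRRM2 (median 3.22), while the relay genes centre near 0 in both panels (medians 0.02 and 0.20).

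The genes nearest to each strongly changed member over the 9 libraries were found by the root mean square difference of log2 CPM after each gene was centred, among the 11306 genes whose mean log2 CPM was 2 or more. PTGS2 (0.265), MMP3 (0.428) and IL6 (0.491) were nearest to IL1B. TNFSF15 (0.327), MMP3 (0.369) and EDNRB (0.389) were nearest to IL1A. EYA4 (0.075), PRKAR2B (0.095) and NFKBIA (0.097) tracked IL1R1 most closely. ARHGAP28 (0.207), UCN2 (0.255) and SLC18B1 (0.256) were nearest to IL33, and BAIAP2L1 (0.174), MEG8 (0.186) and FAM115C (0.189) to IL18. FBXL14 (0.284), ALKBH2 (0.298) and PRDM6 (0.312) were nearest to IL1RL1, whose own values rest on few reads. This is a description, and the 9 libraries fall into 3 groups and so are not independent points.

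The authors' deposited table also compares shRRM2/shp16 with shRRM2, with FPKM values. It called IL1A (log2 fold change 3.07), IL1B (3.92), IL1R1 (2.4), IL33 (2.92) and MYD88 (0.38) higher, each with a q-value of 4.4e-04, as the counts did. In the authors' deposited table IL18 (-1.38, q-value 0.335), IL1RL1 (1.5, q-value 1) and IRAK1 (0.09, q-value 0.765) were not significant, while the count test called all 3. For IRAK1 the sign differed as well, at -0.21 by the counts.

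The mismatching column of that table stood apart for these genes too. Turned back to RPKM, the authors' columns equalled the counts (within a fraction of 0.001) for 8 of 9 libraries at all 8233 genes with at least 200 reads in every library, but for shRRM2 replicate c at only 63 of them (0.765%). IL1B was at 10.4 RPKM in that column, against 3.65 and 3.92 in the columns of shRRM2 a and b and 4.37 from its own count file. IL18 was lower there, at 0.238 against 0.651 and 0.589, and 0.692 from the count file. Against the other columns of its group, the ligands IL1A, IL1B and IL33 were thus higher and IL18 lower in it.

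**Figure D4:**
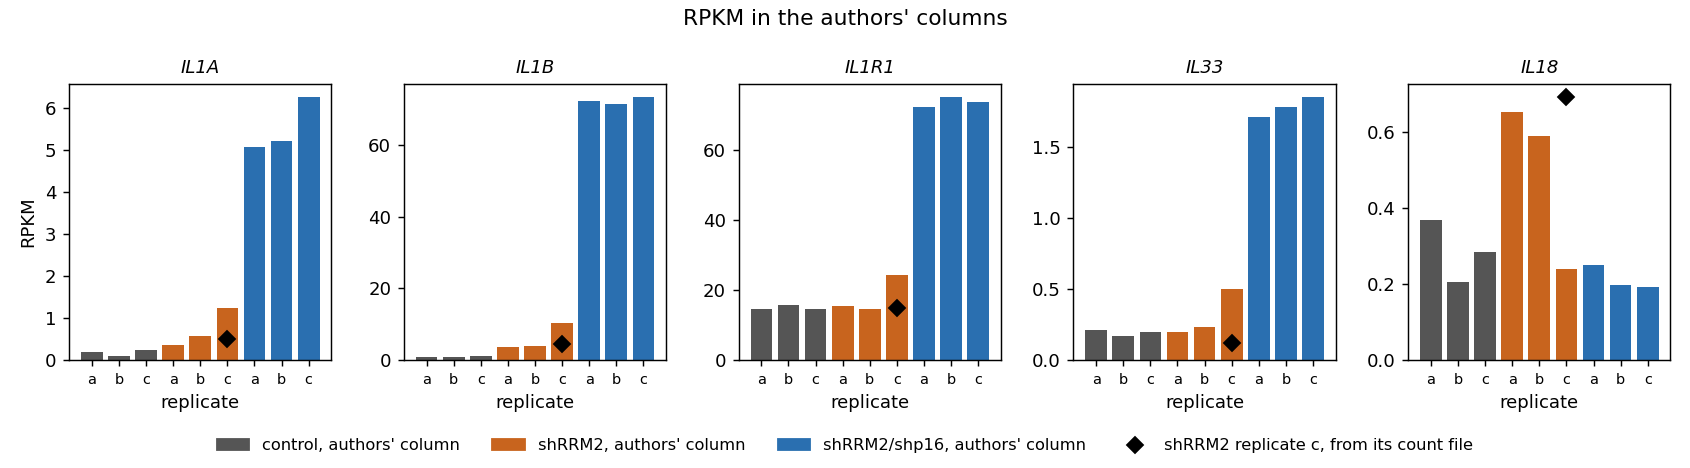
Bars are RPKM recovered from the authors' columns for 5 genes in the 9 libraries, on linear axes from 0, and the diamond is the value of shRRM2 replicate c computed from its count file. In shRRM2 c the bars of IL1A, IL1B, IL1R1 and IL33 stand above the diamond and the bar of IL18 (0.238) below it (0.692).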

How the data were processed

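For each of the 9 libraries the authors deposited raw counts of reads by Ensembl gene, in HTSeq's layout. The library kit was stranded and depleted ribosomal RNA, per the labels' protocols, while the strand setting of the counting and the annotation release are not given in the sources used here. The submitters' processing notes name TopHat2 2.0.9, Cufflinks 2.0.2, Cuffdiff and GRCh38 without their roles. A further deposited table gives a log2 value per library, found here to be log2(x + 1) with x in reads per base of gene length, scaled to library size like RPKM. For shRRM2/shp16 against shRRM2 that table holds the authors' FPKM values, log2 fold changes, p-values and q-values, per the file headers. 8 of the 9 log2 columns match the counts, and 0 columns of per-sample values matched no sample. Closing tallies were not used as genes. Gene lengths were those implied by the matching columns.

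The count test was edgeR 4.0.16 (R 4.3.3): filterByExpr (16561 genes, 99.82% of the counts), TMM scaling, 1 quasi-likelihood fit over all 9 libraries with 6 residual degrees of freedom, two-sided tests, Benjamini-Hochberg adjustment over the tested genes and a threshold of 0.05. The common biological coefficient of variation was 0.027. The standard error is the log2 fold change over the square root of its F value. Replicates were not copies of each other (chi-square of their counts 1.41 to 2.7 times its degrees of freedom). Reads carry no molecular identifiers, so read numbers understate the error. The fit was tested on simulated counts. Alternatives were RLE factors, DESeq2 1.42.0, other filters, fewer libraries, a replicate block and limma 3.58.1 on the authors' values, with a pseudocount of 0.1. The limma fit on the 8 matching columns, which leaves out shRRM2 replicate c, was chosen after seeing the data.

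The genes of the family and all lists were chosen with earlier results of these data known. Beside the 10 members, the text names up to 3 highest and 3 lowest called genes of each list in both hairpin steps, and CXCL8, IL6, NFKBIA, IL1R2, CASP1, NLRP3, IRAK2, IRAK3, IL18BP and SIGIRR. The NF-kB subunits and some cell type markers were named outside this rule. The genes of the chromosome 2 clusters were named for their position. Positions are from GENCODE release 29 on GRCh38, and sequences from RefSeq on GRCh38.p14.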

Additional observations from a re-analysis of the deposited data

Results flagged for a closer look

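In the authors' RPKM column of shRRM2 replicate c, which does not match its count file and was used in no test of the counts, 4 genes of the family stood above the columns of all 3 control libraries and of shRRM2 a and b. IL1A was at 1.25 RPKM there, where the control columns ran from 0.102 to 0.244 and shRRM2 a and b were at 0.358 and 0.566. IL1B was at 10.4, against 0.719 to 1.19 in control and 3.65 and 3.92 in shRRM2 a and b. IL1R1 was at 24.2, against 14.6 to 15.8 in control and 15.3 and 14.6 in shRRM2 a and b. IL33 was at 0.497, against 0.167 to 0.21 in control and 0.195 and 0.229 in shRRM2 a and b. From the count file of the same library the values were 0.508, 4.37, 14.9 and 0.122. The cause of the mismatch was not tested.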

How the results depend on the processing

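Over all alternatives the 9 tested members gave 366 values in the 3 comparisons, of which 341 kept their direction and their side of the threshold, 16 lost the call, 1 gained it and 8 changed sign. The calls of IL1A and IL1B in all 3 comparisons, of IL1RAP against control, of IL18 and MYD88 between the hairpin groups, and of IL1R1 and IL33 in shRRM2/shp16 against either group did not change wherever the gene was kept. The 8 changes of sign were in differences that were not called: IL1R1 in shRRM2 against control was 0.22 with limma on the 9 RPKM columns, and IL33 was 0.42 there and 0.10 on the 8 matching columns. Leaving out 1 library moved IL33 in that comparison from -0.33 to 0.11, with the sign turned without shRRM2 replicate c. IL1RAP between the hairpin groups ran from -0.04 (without shRRM2 replicate a) to 0.08 and was -0.01 without shRRM2/shp16 replicate c, and IL1RL1 in shRRM2/shp16 against control ran from -0.11 (without control replicate c) to 0.3 and was -0.06 without shRRM2/shp16 replicate b. With limma on the 9 columns IL18 in shRRM2 against control (0.56, adjusted p 0.144) and IRAK1 between the hairpin groups (-0.12, adjusted p 0.0665) lost their calls, and the cause was not tested. The other lost calls were of IL1RL1 and MYD88, whose values stand with those genes.

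The planned limma fit on the authors' log2 values with a mean of at least 0.5 left 49 genes, none of them a member, and called 30, 32 and 36 genes in shRRM2 against control, shRRM2/shp16 against shRRM2 and shRRM2/shp16 against control, because so few genes were tested. Leaving out 1 library at a time gave 9395 to 9571, 9420 to 9587 and 9679 to 9941 called genes in the same order. With the replicate block 10101, 10134 and 10388 genes were called, and no call of a member changed. The labels do not say whether the letters pair the samples. Libraries with the same letter had correlations of -0.083 to 0.182 in their deviations, and those with different letters -0.126 to 0.151. Such weak correlations cannot settle whether the samples were paired. Depth limits IL1A, IL1RL1, IL33 and IL18, with under 50 reads in control and shRRM2, and a filter of at least 10 counts in every library keeps 5 members only.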

Other observations

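IL36G and IL18RAP, family genes too low to test, are named here after their values were seen. IL36G, an epithelial ligand, had no read in the 6 control and shRRM2 libraries and 3, 4 and 1 in shRRM2/shp16. IL18RAP, the accessory chain of the IL-18 receptor, had 6, 1 and 1 reads in control, 0, 1 and 0 in shRRM2, and 7, 12 and 7 in shRRM2/shp16. The per-length ratio of IL18 to IL18BP was 0.376, 0.187 and 0.238 in control, 0.458, 0.386 and 0.363 in shRRM2, and 0.192, 0.179 and 0.174 in shRRM2/shp16, so it was lowest beside the highest counts of IL18R1, with control overlapping both other groups.

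Of the 25 genes known to be induced by IL-1, 21 had their highest value of the 3 shRRM2 libraries in replicate c by the authors' RPKM columns, and 11 did by the count files.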
